A study of Mus musculus with 7 samples.

Results

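Integrins are the adhesion receptors through which a T cell holds on to vessel walls, target cells and tissue, and 9 integrin genes were examined here for occupancy by the transcription factor Runx3 and for the enhancer mark H3K4me1 in resting splenic CD8-positive T cells (CD8-TC). The genes were Itgae, Itgal, Itgam, Itgax, Itga4, Itgav, Itgb1, Itgb2 and Itgb7, of 22350 annotated protein-coding genes on chromosomes 1 to 19 and X. A region of either list was assigned to a gene when its midpoint lay in the gene body or within 20 kb of it. This gave 9 of the 4934 Runx3-bound regions and 94 of the 76705 H3K4me1-marked regions.

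All libraries came from the same kind of cell. CD8-TC of wild type ICR mice were isolated from spleen on anti-CD8 magnetic beads, with a purity above 95% per the labels, and were fixed without culture; the labels state that cells were collected from 18 mice, and the age of the mice is not given in the sources used here. Chromatin immunoprecipitation and sequencing (ChIP-seq) used an in-house polyclonal antibody to Runx3 (3 libraries of 2 repeats, 2 of them from the first repeat), a monoclonal antibody to histone H3 monomethylated at lysine 4 (2 libraries) and non-immune rabbit serum (NIS) as control (2 libraries). The authors called regions with MACS on the joined repeats of each antibody against NIS. Each list therefore gives where a region starts and ends, in genome build mm9, but no height and no replicate error, and the read depth behind a region is unknown. For this reason no test was run, and the values below describe 1 pooled list per antibody. Intervals are 95% Wilson intervals, which cover counting error over regions only.

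An integrin is a dimer of an α and a β chain, and in lymphocytes the β chain sorts the family into groups. The β2 chain (Itgb2) pairs with αL (Itgal) to form LFA-1, which binds ICAM proteins on target cells, and with αM (Itgam) and αX (Itgax), which are best known from myeloid and dendritic cells. The β7 chain (Itgb7) pairs with αE (Itgae, also known as CD103), which binds E-cadherin on epithelium, and with α4 (Itga4), which binds MAdCAM-1 on gut vessels. The β1 chain (Itgb1) also pairs with α4, in a receptor for VCAM-1, and αV (Itgav) pairs with several β chains to bind matrix proteins and latent TGF-β. Runx proteins bind DNA through their Runt domain at the motif TGNGGN, in which each N is T or C, and H3K4me1 marks enhancers, both active and poised.

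The sequence at the midpoint of a Runx3-bound region is shown for each integrin gene that had one, as a sample of the bound sequence beside the gene; binding was called over the whole region, and the list marks no summit in it. Where a gene had several, the stretch with the most RUNX motifs is given, and Itgam and Itgax share a region (the second site of Itgax, with as many motifs, is not shown). Each is 200 bp of the forward strand of mm9, with RUNX motifs of either strand in capitals, so that a motif on the reverse strand appears as its reverse complement.
Itgal, chr7:134428844-134429043: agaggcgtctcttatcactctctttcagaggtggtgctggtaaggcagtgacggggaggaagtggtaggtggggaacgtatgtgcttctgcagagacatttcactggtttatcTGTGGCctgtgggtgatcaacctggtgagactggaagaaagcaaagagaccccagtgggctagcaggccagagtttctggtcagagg
Itgam and Itgax, chr7:135263599-135263798: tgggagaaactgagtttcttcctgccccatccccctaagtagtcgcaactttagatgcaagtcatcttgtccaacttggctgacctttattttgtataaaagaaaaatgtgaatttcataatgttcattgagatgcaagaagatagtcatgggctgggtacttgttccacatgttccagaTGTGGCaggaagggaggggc
Itgb2, chr10:76985131-76985330: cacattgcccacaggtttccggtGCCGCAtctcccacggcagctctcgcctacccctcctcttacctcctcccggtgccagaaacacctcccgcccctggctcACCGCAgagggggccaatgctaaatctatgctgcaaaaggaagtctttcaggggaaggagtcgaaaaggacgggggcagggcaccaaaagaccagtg
Itgb7, chr15:102055674-102055873: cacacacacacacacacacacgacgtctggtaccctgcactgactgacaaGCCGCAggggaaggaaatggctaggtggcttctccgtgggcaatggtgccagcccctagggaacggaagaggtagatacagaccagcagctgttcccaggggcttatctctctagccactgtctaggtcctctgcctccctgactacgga
Itgae, chr11:72908068-72908267: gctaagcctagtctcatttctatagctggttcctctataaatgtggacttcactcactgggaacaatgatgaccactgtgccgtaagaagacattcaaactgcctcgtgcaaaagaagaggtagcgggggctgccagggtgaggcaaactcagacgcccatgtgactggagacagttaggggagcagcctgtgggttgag
Itga4, chr2:79099711-79099910: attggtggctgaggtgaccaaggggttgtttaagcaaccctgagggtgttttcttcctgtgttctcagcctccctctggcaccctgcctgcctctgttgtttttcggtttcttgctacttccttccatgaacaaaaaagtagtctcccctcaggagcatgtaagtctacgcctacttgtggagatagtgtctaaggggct

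The last 2 of these hold no RUNX motif. In both genes the motif lay further out in the same region, and these shorter stretches, chosen after the values were seen, show where.
Itgae, left, chr11:72907939-72907984: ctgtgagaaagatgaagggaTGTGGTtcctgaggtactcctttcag
Itgae, right, chr11:72908351-72908396: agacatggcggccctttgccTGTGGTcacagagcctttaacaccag
Itga4, chr2:79100077-79100146: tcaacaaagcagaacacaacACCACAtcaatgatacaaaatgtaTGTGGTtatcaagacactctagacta

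The genes of the β2 and β7 groups each had a Runx3-bound region, and Itgb1 and Itgav had none. In all, 7 of the 9 integrin genes had at least 1 Runx3-bound region within 20 kb, beside 19.8% of all protein-coding genes under the same rule. Itgax, Itgb2 and Itgb7 had 2 each, a number that 4.67% of all protein-coding genes reached or passed, and Itgae, Itgal, Itgam and Itga4 had 1 each. Windows of the integrin genes were long, with a median of 87500 bp against 55400 bp over all genes, and a longer window can hold more regions. Per 100 kb of window the density was 3.58 regions at Itgb7, 3.27 at Itgax and 2.65 at Itgb2, and it lay between 0.850 and 1.27 at Itga4, Itgam, Itgae and Itgal. The median over the 9 genes was 1.03 regions per 100 kb, and over all genes it was 0.

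**Figure D1:**
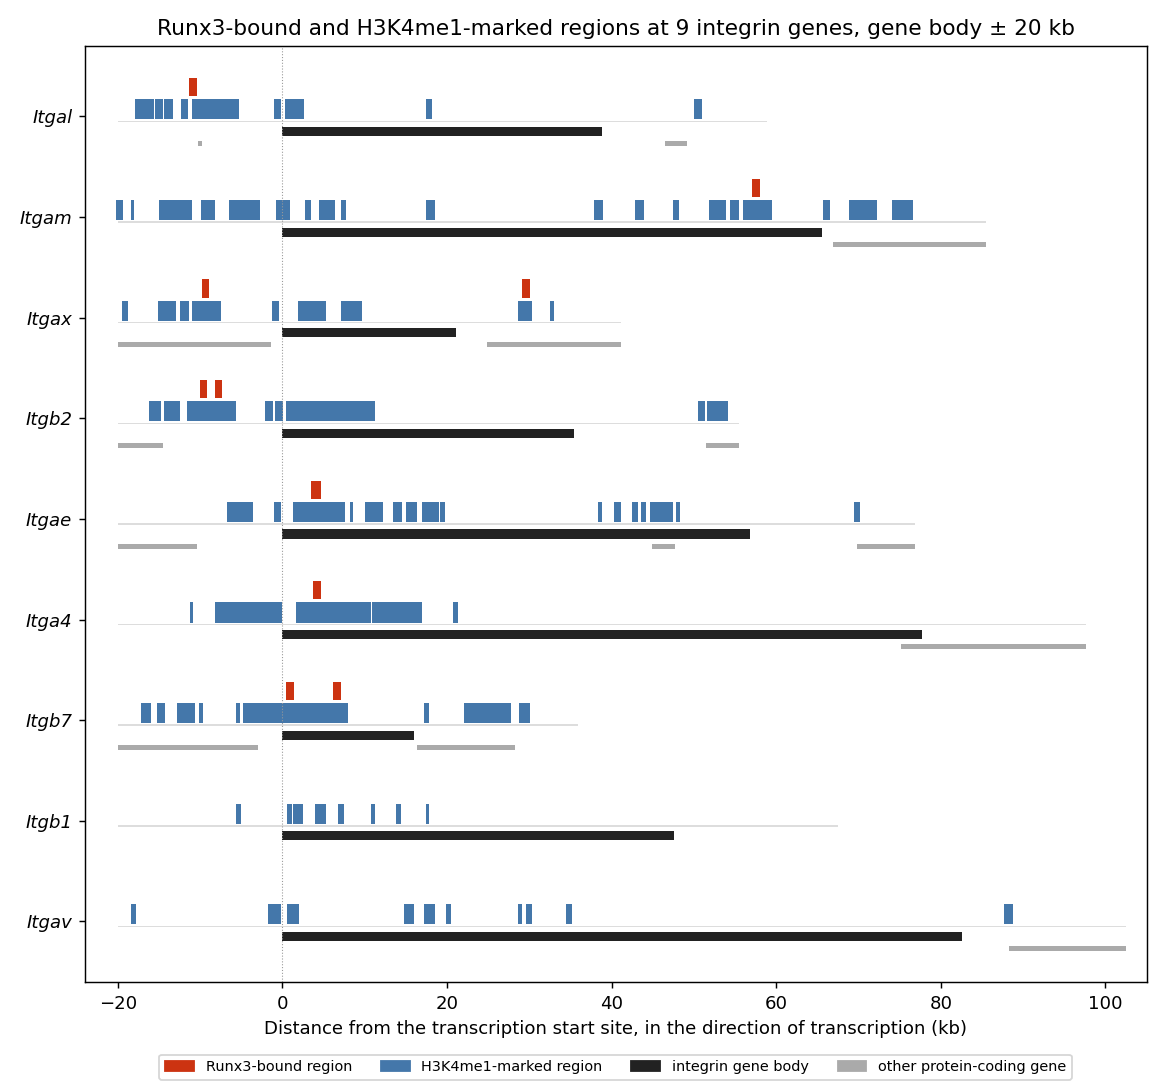
Positions of the 9 Runx3-bound regions and the 94 H3K4me1-marked regions along 9 integrin genes, drawn to scale against distance from the transcription start site in kb, with transcription running to the right and the dotted line at the start site. Runx3-bound regions (red) occur at 7 genes, each above an H3K4me1-marked region (blue), and the rows of Itgb1 and Itgav hold blue boxes alone; the region at Itgam is the left one of Itgax.

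In the β2 group, Runx3 bound outside the gene bodies or far from the start site. Itgal, on chromosome 7 at 134439774 to 134478651 (forward strand), had 1 Runx3-bound region of 973 bp at chr7:134428457-134429429, with its midpoint 10.8 kb upstream of the transcription start site (TSS). This region was intergenic, and the nearest TSS, 1068 bp away, was that of Gm17511, a predicted gene that lies between it and Itgal. It was the only one of the 9 that H3K4me1 covered in part, over 67.6% of its length.

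Itgb2, the shared β chain (chromosome 10, 76992997 to 77028453, forward strand), had a pair of Runx3-bound regions upstream of its TSS. They measured 823 bp and 842 bp, at chr10:76983019-76983841 and chr10:76984810-76985651, with midpoints 9.57 kb and 7.77 kb from the TSS and 968 bp between them. Both were intergenic and lay under a single H3K4me1-marked region of 5943 bp. The nearest TSS was that of 1810008A18Rik, on the other side, at 4872 bp and 6672 bp. Joining neighbours within 1000 bp would make this pair 1 region, which leaves 8 regions at the integrin genes.

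Itgam and Itgax lie head to tail on chromosome 7 (135206154 to 135271674 and 135273061 to 135294171), and their windows overlap, so that 1 Runx3-bound region and 8 H3K4me1-marked regions were counted for both. The shared Runx3-bound region (chr7:135263262-135264134, 873 bp) was in an intron of Itgam, 57.5 kb downstream of the TSS of Itgam and 9.36 kb upstream of that of Itgax. Itgax had a second one of 988 bp at chr7:135302133-135303120, in an intron of the neighbouring integrin gene Itgad, 4736 bp from the TSS of Itgad. No Runx3-bound region had its midpoint in the body of Itgax, Itgal or Itgb2.

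In the β7 group each gene had a Runx3-bound region inside its body and within 6.59 kb of its TSS. Itgae (chromosome 11, 72904085 to 72960948, forward strand) had 1 region at chr11:72907528-72908807, in an intron 4.08 kb downstream of the TSS. At 1280 bp it was the widest at these genes, and 96.4% of all Runx3-bound regions were narrower. It lay wholly within an H3K4me1-marked region of 6298 bp. Itga4 (chromosome 2, 79095583 to 79173280, forward strand) had a region of 952 bp at a like position, chr2:79099335-79100286, in an intron 4.23 kb downstream of the TSS and within an H3K4me1-marked region of 4262 bp.

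Itgb7 (chromosome 15, 102046426 to 102062366, reverse strand) is the shortest of the 9 genes and had 2 Runx3-bound regions in its introns. One measured 950 bp at chr15:102060998-102061947 and had its midpoint 894 bp from the TSS, the only one of the 9 within 1 kb of the TSS of an integrin gene. The other measured 989 bp at chr15:102055279-102056267, 6.59 kb from the TSS, with 4730 bp between them. Both lay in the same H3K4me1-marked region of 12682 bp.

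Taking gene bodies alone, 4 of the 9 genes kept a Runx3-bound region, namely Itgae, Itgam, Itga4 and Itgb7, beside 8.52% of all protein-coding genes. Body length was not matched in this comparison. The bodies measured 56864 bp at Itgae, 65521 bp at Itgam, 77698 bp at Itga4 and 15941 bp at Itgb7. Of the 9 regions, 6 were in introns and 3 were intergenic, and for 5 of them the nearest protein-coding TSS was that of a gene they were assigned to. The region that lay farthest from its gene body was that of Itgal, at 10831 bp. The nearest ones left out by the limit of 20 kb were at 31.0 kb from Itgam, which is the second region of Itgax, and at 42.8 kb upstream of Itgae, near 1200014J11Rik. The median width of the 9 regions was 952 bp, beside 851 bp over the whole list.

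Itgb1 and Itgav had no Runx3-bound region at any margin up to 100 kb. For Itgb1 (chromosome 8, 131209554 to 131257100) the closest one was 204 kb upstream, and for Itgav (chromosome 2, 83564554 to 83647073) it was 187 kb downstream. As the list holds called regions only, a site below the calling threshold cannot be told from an unbound one. Both genes carried H3K4me1, with 9 and 11 regions in their windows.

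All 9 integrin genes had H3K4me1-marked regions, beside 73.6% of all protein-coding genes. Itgam had 21 and Itgae 16, Itgav had 11, and Itgal, Itgax and Itgb7 had 10 each. Itgb1 had 9, Itgb2 had 8 and Itga4 had 7. The number did not follow the length that was marked, because some of the genes with few regions had the widest ones. Of the window, H3K4me1 covered 45.6% at Itgb7, 33.6% at Itgb2, 31.2% at Itgam, 26.9% at Itgax, 25.2% at Itgae, 20.6% at Itga4 and 20.3% at Itgal. The 2 genes without Runx3 were lowest, at 8.13% for Itgav and 6.78% for Itgb1. The median over the 9 genes was 25.2%, and over all protein-coding genes it was 5.75%, with the middle 50% of genes between 0 and 14.3%. Thus Itgb7 was above 98.5% of all genes by this measure, whereas Itgb1 was above 53.9%.

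**Figure D2:**
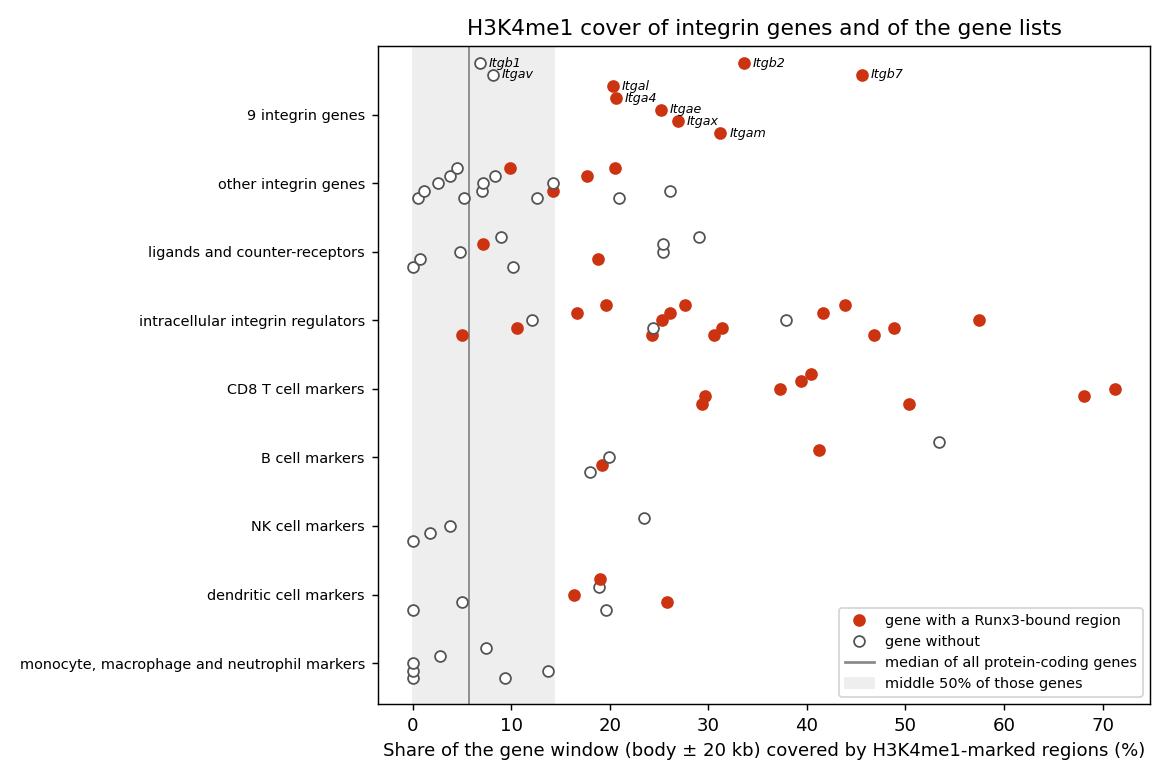
Share of each gene's window (body with 20 kb on either side) covered by H3K4me1-marked regions, in %, for the 9 integrin genes and the gene lists, 1 point per gene, with vertical spread for legibility only. Filled points had a Runx3-bound region; the 7 such integrin genes lie between 20.3% and 45.6%, and Itgb1 and Itgav lie within the grey band that holds the middle 50% of all protein-coding genes.

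By the annotation at their midpoints, 51 of the 94 regions were in introns, 29 were intergenic, 5 were in coding exons, 5 in UTRs and 4 in non-coding exons. For 64 of them the nearest protein-coding TSS was that of a gene they were assigned to, and the others stood nearer to another gene, such as Zfp740 or Rarg at Itgb7.

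The mark was placed differently along the genes. At Itgb7 the broad region ran from -4750 bp to 7931 bp relative to the TSS, so that its upstream end lay over the 3′ end of the neighbour Rarg, and 100% of the first 25% of the Itgb7 body was covered. At Itgb2 a single region of 10770 bp began 455 bp downstream of the TSS, and 96.3% of the first 25% of the gene was covered, while no other region had its midpoint in the gene body. At Itga4 6 regions lay between -8163 bp and 21335 bp relative to the TSS, the last of them 615 bp wide and set apart from the others, with a further small one upstream, and 96.1% of the marked length in the body was in its first 25%. Beyond that edge the rest of the gene body held none. At Itgae 2 regions lay upstream (3167 bp and 814 bp wide) and 1 downstream of the gene. The 13 in its body came in 2 groups, one following the TSS and one towards the far end of the gene, reaching 48334 bp, the latter around Gsg2, a kinase gene on the opposite strand that lies within the body of Itgae at 72948987 to 72951796. At Itgal 7 of the 10 regions lay upstream of the gene and 2 within it. At Itgam they were spread over the whole window, 6 upstream, 12 in the body and 3 downstream. At Itgb1 8 of the 9 regions lay in the body, none of them beyond 17812 bp from the TSS, and the widest measured 1246 bp. Over the 9 genes the median share of body cover in the first 25% of the gene was 69.6%, beside 59.4% over the 13947 protein-coding genes with any cover in the body.

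The start sites themselves were also compared. H3K4me1 covered the TSS of Itgam, Itgb2 and Itgb7, which is 3 of 9 genes, beside 17.7% of all protein-coding genes. The other 6 had the nearest H3K4me1 between 13 bp (Itga4) and 539 bp (Itgb1) away. In 5 of these, all but Itgb1, H3K4me1 stood within 2 kb on both sides of an unmarked gap at the TSS, an arrangement found at 29.3% of all protein-coding genes. The gap measured 512 bp at Itgal, 740 bp at Itgav, 1513 bp at Itgae, 1690 bp at Itga4 and 2306 bp at Itgax. At Itgb1 it was 5537 bp, because the nearest mark upstream was 4999 bp from the TSS. This arrangement was examined after the values had been seen.

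The Runx3-bound regions lay in wide marked regions. All 9 overlapped H3K4me1 (100%, interval 70.1 to 100%), beside 78.8% of all Runx3-bound regions (interval 77.7 to 79.9%). All 9 had their midpoint inside an H3K4me1-marked region, beside 66.1% of all, and 8 were covered over their whole length, beside 50.6%. The interval of the overlap share, which reaches down to 70.1%, includes the 78.8% of the whole list. The 66.1% for midpoints lies below that bound, but the interval takes the 9 regions as independent. They lay in only 7 H3K4me1-marked regions, with the pair of Itgb2 in 1 and the pair of Itgb7 in another, so no excess is read from it. The 7 H3K4me1-marked regions concerned were 7.45% of the 94 (interval 3.65 to 14.6%), against 5.49% of the whole H3K4me1 list. They measured 1654 bp at the second site of Itgax, 2122 bp at Itgal, 2501 bp at the site shared by Itgam and Itgax, 4262 bp at Itga4, 5943 bp at Itgb2, 6298 bp at Itgae and 12682 bp at Itgb7. Their median was 4260 bp, and that of the other 87 was 1020 bp. A wide region has more room to overlap another.

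Of the 94 regions, 6 were wider than 5 kb, beside 2.78% of the H3K4me1 list. These were the region of Itgb7 (12682 bp, wider than 99.8% of the list), the one in the body of Itgb2 (10770 bp, wider than 99.7%), 2 at Itga4 (7062 bp and 6056 bp) and the Runx3-overlapping ones of Itgae and Itgb2. The 2 widest differed in that Runx3-bound regions lay within that of Itgb7 and not within that of Itgb2, where the bound pair was in another marked region further upstream. At Itgav and Itgb1 no region exceeded 1551 bp. The median width over all 94 was 1050 bp, near the 979 bp of the whole list.

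**Figure D3:**
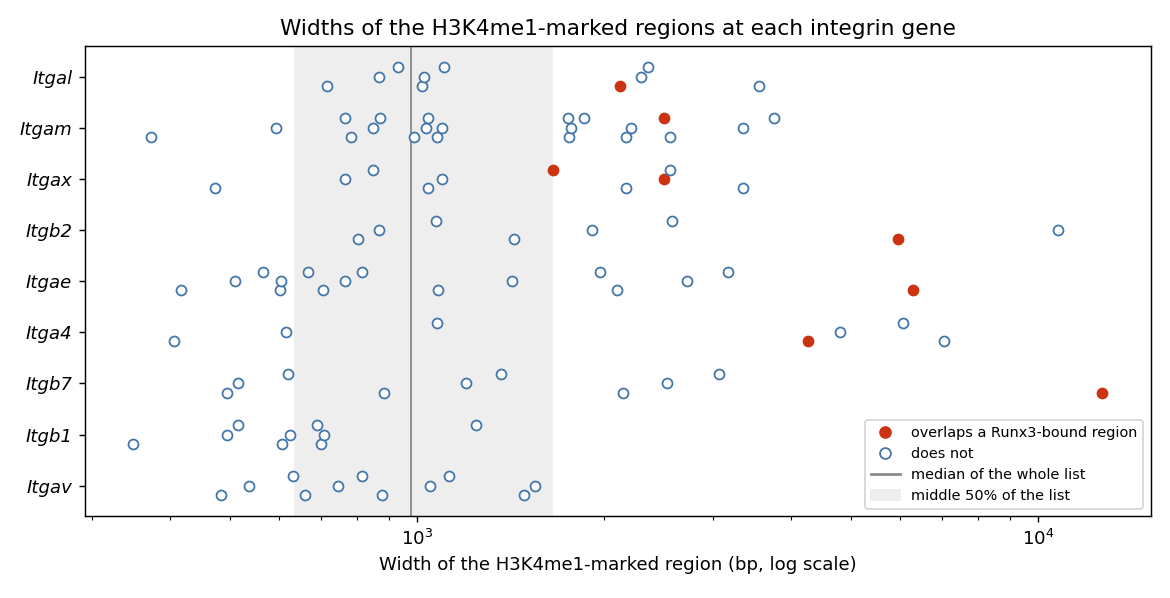
Width of every H3K4me1-marked region at each integrin gene, in bp on a log scale, 1 point per region, with regions in the overlap of Itgam and Itgax drawn for both. Filled points overlap a Runx3-bound region and range from 1654 bp to 12682 bp, to the right of the median of the list (979 bp), and the points of Itgb1 and Itgav do not pass 1551 bp.

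Motifs in the bound sequence were then examined. Within 200 bp around the midpoint, 6 of the 9 Runx3-bound regions held a RUNX motif (66.7%, interval 35.4 to 87.9%), beside 66.0% of all Runx3-bound regions. Windows of the same length 5 kb away held it in 5 of 18 cases (27.8%), the same share as around all regions. The regions without a motif there were those of Itgae, Itga4 and the TSS-proximal one of Itgb7. Over the whole region each of the 9 held at least 1, beside 88.8% of all. The number per region was 7 at the second site of Itgax, 5 at the site of Itgam and Itgax, 3 at the Itgb2 site nearer the TSS and at the TSS-proximal Itgb7 site, 2 at Itgal, Itgae, Itga4 and the other Itgb2 site, and 1 at the remaining Itgb7 site.

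At Itgae both matches read TGTGGT on the forward strand and stood at -205 bp and 207 bp from the midpoint, as in the short stretches above. At Itga4 they were TGTGGT in opposite orientations, with the centres at 290 bp and 314 bp to the right of the midpoint. At Itgb2 the central motifs of the site nearer the TSS were TGCGGC and TGCGGT, both on the reverse strand, and at Itgb7 the single motif was TGCGGC. In the central windows TGTGGT occurred in 2 of 9 regions, beside 46.6% of all Runx3-bound regions, and TGCGGC in 2 of 9, beside 5.43%. The interval around 2 of 9 runs from 6.32 to 54.7%, so that the share of TGTGGT in the whole list lies inside it and that of TGCGGC just below it. These were 2 of 4 motif spellings looked at. Over whole regions TGTGGT occurred in each but the Itgb7 site farther from the TSS, and no share over the whole list was taken for this.

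The core bound by ETS factors, NGGAAN with A or C at the first N and A or G at the last, was searched on both strands and was present in the central 200 bp of 7 regions (77.8%, interval 45.3 to 93.7%), beside 63.8% of all. In windows 5 kb away it was present in 9 of 18 cases, and in 43.0% around all regions. RUNX and ETS motifs were both present in 6 of the 9, beside 44.3% of all. The AP-1 motif, TGACTCA or TGAGTCA, was present in 1, the Itgb2 site farther from the TSS, beside 4.58% of all. In 5 of the 9 regions a RUNX motif had an ETS motif within 10 bp (55.6%, interval 26.7 to 81.1%), beside 27.3% of all Runx3-bound regions and 9.04% of windows of equal width 5 kb away. The bases between them numbered 0 at the site of Itgam and Itgax, where AGGAAG follows TGTGGC directly at the right end of the printed stretch. They numbered 1 at the second site of Itgax, 2 and 8 at the Itgb2 sites and 5 at Itgb7 (TGCGGC and AGGAAA). At Itgal the shortest distance was 51 bp, at Itgae 43 bp, at the TSS-proximal Itgb7 site 169 bp and at Itga4 263 bp. The close pairs were thus at every bound site of Itgam, Itgax and Itgb2 but at none of Itgae, Itga4 and Itgal. The limit of 10 bp was chosen after these distances had been seen. A match describes the letters in the window and is not evidence that a factor binds there.

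**Figure D4:**
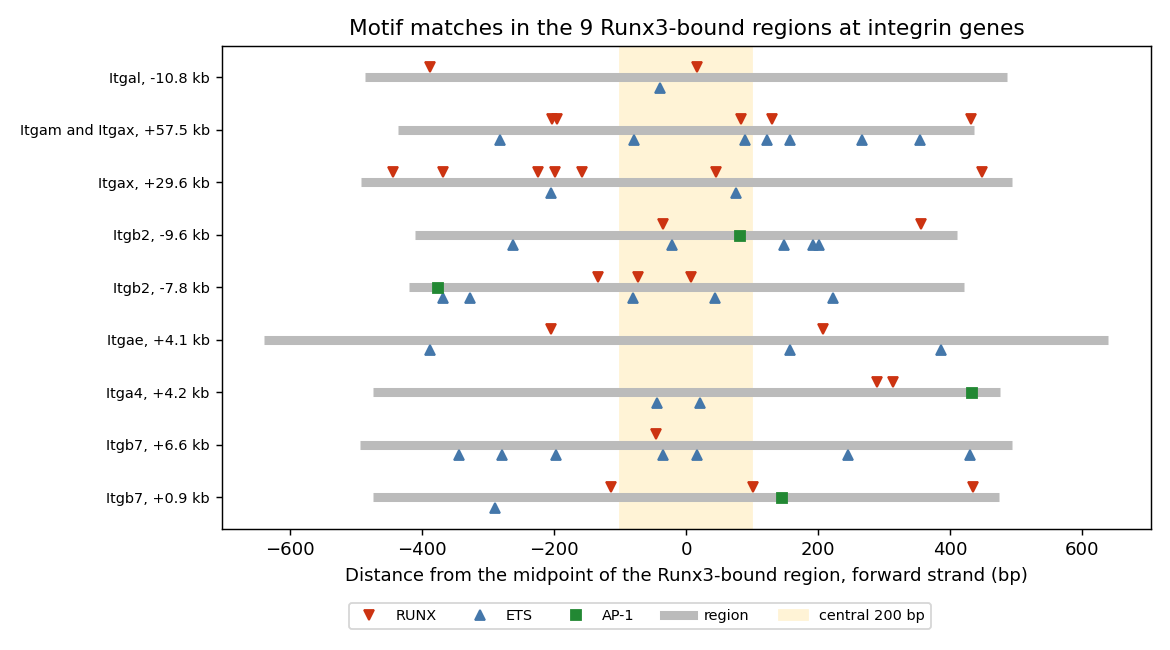
Positions of RUNX, ETS and AP-1 motifs in the 9 Runx3-bound regions, against distance from the midpoint in bp on the forward strand; grey bars are the regions, the shaded band is the central 200 bp, and each label gives the distance from the TSS of the first gene named. A RUNX motif falls in the band in 6 regions, and at Itgae, Itga4 and the Itgb7 site at 0.894 kb the motifs lie outside it.

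Other genes of the integrin system were counted under the same rule, by which 19.8% of all protein-coding genes had a Runx3-bound region and 73.6% had H3K4me1. Of 18 genes for intracellular regulators, which link integrins to the cytoskeleton, switch them on or hold them inactive, 15 had a Runx3-bound region (83.3%) and all 18 had H3K4me1, with a median cover of 26.8%. Apbb1ip, which recruits talin downstream of Rap1, had 5 Runx3-bound regions and a cover of 30.6%. Cyth1, for cytohesin-1, which acts on the β2 chain, and Cytip, whose product restrains cytohesin-1, had 4 each, with 57.5% and 43.9% covered. Fyb, an adaptor of T-cell receptor signalling to integrins, had 3. Per 100 kb of window the density was 3.53 regions at Apbb1ip, 2.55 at Cyth1, 3.76 at Cytip and 2.43 at Fyb. Rasgrp1, Vcl and Fermt3 had 0. Window length was not matched between this list and all genes, and a longer window can hold more regions. Of 17 other integrin genes 4 had a Runx3-bound region (23.5%), a share near that of all genes: Itga2 had 2, and Itga9, Itga6 and Itgad had 1 each. That of Itgad is the second one of Itgax. All 17 had H3K4me1, with a median cover of 8.39%. Of 10 genes for ligands, which other cells mostly display, Icam2 and Cdh1 had 1 Runx3-bound region each and the other 8 had 0, again near the share of all genes, and the median cover was 9.60%. Icam1, Icam4 and Icam5 are neighbours with overlapping windows, and Vcam1 had no H3K4me1.

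The gene nearest to Itgb7 in its counts was sought among the other 22349 protein-coding genes by the distance over 3 measures in the window (Runx3-bound regions, H3K4me1-marked regions and H3K4me1-covered bp, each as log2 of the value plus 1). Vps45, Cd83, Arl6ip5, Slc44a2 and D19Wsu162e were closest, each with 2 Runx3-bound and 10 H3K4me1-marked regions and between 24080 and 25395 bp covered, against 25499 bp at Itgb7. With only 2 lists such a likeness is coarse.

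The label of the cells was checked on marker genes, because Itgam and Itgax are also genes of other spleen cells. All 8 CD8 T-cell markers, among them Cd8a, Cd8b1 and Cd3e, had Runx3-bound regions, beside 19.8% of all protein-coding genes, with a cover between 29.4% and 71.3%. Some of these genes are neighbours, and the 21 regions counted over the 8 genes were 17 distinct ones. All 5 B-cell markers examined had H3K4me1 (18.0 to 53.4% covered) and 2 of them, Cd79a and Pax5, had a Runx3-bound region. Of 7 dendritic-cell markers 6 had H3K4me1, with 0 to 25.8% covered over the 7, and Flt3, Zbtb46 and Xcr1 had Runx3-bound regions while Cd209a had neither. Of 7 markers of monocytes, macrophages and neutrophils 0 had a Runx3-bound region and 4 had H3K4me1, with 0 to 13.7% covered, and Lyz2, Ly6g and S100a8 had neither. Of 4 NK-cell markers 0 had a Runx3-bound region and 3 had H3K4me1, with 0 to 23.5% covered, the most at Klrb1c. The median cover was 39.9% for the CD8 T-cell markers, 19.9% for B cells and 18.9% for dendritic cells. It was 2.80% for monocytes, macrophages and neutrophils and 2.75% for NK cells, beside 5.75% over all protein-coding genes. The part of other cells in the regions at Itgam and Itgax was not tested.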

How the data were processed

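Runx3, H3K4me1 and NIS were assayed by ChIP-seq in CD8-TC. Per the labels, chromatin of about 300 bp was immunoprecipitated and reads of 40 to 42 bp were obtained. The authors aligned reads to mm9 with ELAND (CASAVA 1.6 and 1.7 in the submitters' processing notes), kept unique alignments, joined the repeats and called regions with MACS against NIS, the larger data set being scaled to the smaller. The deposited lists give region starts and ends in bp, with no score, summit or p-value. A region that passed the call only in joined reads cannot be told from one present in both repeats.

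Starts were moved by 1 bp to browser positions. Genes, TSSs (5′ ends of gene records) and exons came from the GENCODE annotation of NCBIM37, which is mm9, and sequence from that genome. Densities are midpoints per 100 kb of window, overlap is at least 1 bp, and motifs were searched on both strands. Background shares use all 22350 protein-coding genes or all regions. Interval and motif functions were tested on simulated data. Alternatives were other margins, definitions of overlap, merged neighbours and motif windows. The genes named are the 9 members, the 4 genes with most Runx3-bound regions of each pathway list (with ties taken by covered length), further genes of these lists and marker genes named after their values were seen, and the 5 genes most like Itgb7, the member with most Runx3-bound regions (ties taken by H3K4me1-covered length). Members and lists were chosen with earlier results of these data known. The symbols Spi1 and Adgre1 were not matched in the annotation, the latter being listed as Emr1. One further marker gene of the lists is not reported here. Python 3.11.15, numpy 2.4.6, pysam 0.24.0 and matplotlib 3.10.9 were used.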

Additional observations from a re-analysis of the deposited data

How the results depend on the processing

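Of 47 alternative values for 9 results, 30 stayed within the limits set for them and 17 moved. The limits were 1.5 times a count or the interval of a share. For the median H3K4me1 cover (25.2%) they were wider, from the 8.13% of Itgav to the 33.6% of Itgb2. At the other margins that median was between 19.3% and 23.6%. The number of integrin genes with a Runx3-bound region (7) was 4 with gene bodies alone, with a margin of 5 kb and when only the gene with the nearest protein-coding TSS was used, and the number of regions (9) was then 5 in each case. It was 7 genes at 50 and 100 kb, with 10 and 11 regions, and Itgav and Itgb1 had none at any margin. The number of H3K4me1-marked regions (94) was 51 with gene bodies alone, 61 at 5 kb, 210 at 100 kb and 57 with neighbours within 1000 bp merged. The share of bound regions with a RUNX motif (66.7%) and with an ETS motif (77.8%) was 100% for both when whole regions were searched, beside 88.8% and 95.0% of all Runx3-bound regions. Of all protein-coding genes, 8.52% had a Runx3-bound region in the body, 13.0% within 5 kb, 30.8% within 50 kb and 44.1% within 100 kb, and of all annotated genes 15.8% within 20 kb. These shifts follow from the wider or narrower windows, the merging or the set of genes. The overlap with H3K4me1 was 100% under each of the 9 alternatives tried for it. With every midpoint inside the mark, smaller margins, merged H3K4me1 neighbours and regions set to 200 bp could give no other value.

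No paired analysis was possible because each antibody has 1 list made from its joined repeats, and no repeat was left out for the same reason. With 9 bound regions and no read counts, strength of binding and its spread between repeats were not compared between genes, and a site under the calling threshold is not seen.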
